A study of Homo sapiens with 12 samples.

Results

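Genes of protein lipoylation, of the pyruvate dehydrogenase complex and of the tricarboxylic acid (TCA) cycle were followed through copper excess in Ishikawa and KLE cells, both human endometrial cancer lines. The 33 genes were chosen by symbol, 33 of 20332 in the deposited table, and comprise 4 lipoylation and ferredoxin genes, 5 subunits of pyruvate dehydrogenase, 6 subunits of other lipoylated complexes, 5 kinases and phosphatases of pyruvate dehydrogenase, and 13 genes of the TCA cycle and pyruvate carboxylation. Polyadenylated RNA was sequenced from each line after 24 h with 200 µM CuCl2 in the medium or without it. The 12 libraries form 4 groups of 3, and per the labels those of a group are independent biological replicates. Control cells carry both an untreated and a vehicle label and are named untreated below. Each line is a single cell line grown in culture, so differences between Ishikawa and KLE cells are differences between 2 lines. Over all genes tested the untreated libraries of the lines differed by a median of 0.23 in size on the log2 scale. Whether each set of libraries is the line on its label cannot be told from these files, and every value that compares the lines rests on the labels.

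Lipoic acid is a sulfur-containing cofactor that is built on a few mitochondrial enzyme complexes, where it swings intermediates between active sites. LIPT2 primes the protein GCSH with an octanoyl chain, the iron-sulfur enzyme LIAS inserts the sulfur with electrons from a ferredoxin, and LIPT1 moves the product onto the other complexes. The lipoylated complexes feed and drive the TCA cycle, and pyruvate dehydrogenase is switched off by the PDK kinases and on by the PDP phosphatases. Excess copper is known to bind lipoylated DLAT, and FDX1, LIAS, LIPT1, DLAT and DLD are genes whose loss is known to protect cells from copper-dependent death.

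Libraries held 14050275 to 25057003 counts, of which the 33 genes gave 0.270 to 0.309%. The 6 epithelial markers (EPCAM, CDH1, KRT8, KRT18, KRT19 and PAX8) summed to 3578 to 4019 TPM (a level per transcript length) in untreated Ishikawa libraries, 2473 to 2600 with copper, 5099 to 5384 in untreated KLE libraries and 5866 to 5921 with copper. All 6 markers lay lower with copper in the Ishikawa libraries. In the KLE libraries the keratins KRT8, KRT18 and KRT19 lay higher, while EPCAM (1033 to 1044 TPM untreated, 979.6 to 1006 with copper), CDH1 (192 to 202 and 173 to 188 TPM) and PAX8 (422 to 454 and 346 to 359 TPM) lay lower, each without overlap. The part of these shifts in the results was not tested. Stromal markers summed to 6.53 to 51.4 TPM, leukocyte markers to 7.17 to 36.4 TPM and endothelial markers to 1.53 to 4.81 TPM. Ishikawa control 2 stood apart from its group. It was the deepest library, it had no count of the stromal genes DCN, LUM and POSTN, and its counts differed from those of its 2 group-mates by chi-square values of 8.50 and 12.9 per degree of freedom, against 2.03 to 3.95 for the other pairs of replicates. Calls of the 33 genes that were lost or gained without it are given with each comparison.

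**Figure D1:**
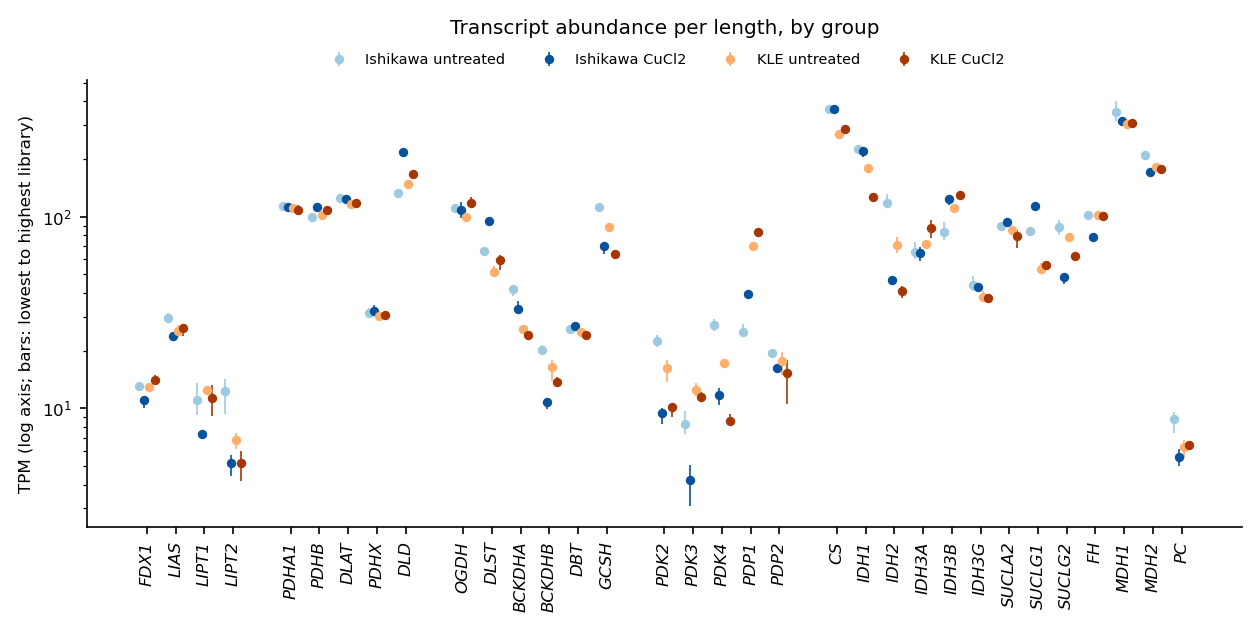
Abundance of the 33 genes in TPM on a log axis, grouped by role; points are means of 3 libraries and bars run from the lowest to the highest library in each of the 4 groups. CS stood highest in both groups of Ishikawa cells and MDH1 in both groups of KLE cells, while PDK3, LIPT2, LIPT1 and PC lay near the bottom.

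The 33 genes spanned a wide range of abundance. In untreated Ishikawa cells CS, the synthase that opens the cycle, stood at 364 ± 13.9 TPM and MDH1, the cytosolic malate dehydrogenase, at 351 ± 46.8 TPM (mean ± SD, n = 3). PDK3 (8.29 ± 1.21 TPM) and PC (8.75 ± 1.15 TPM, mean ± SD, n = 3) were the lowest. The pyruvate dehydrogenase subunits PDHA1, PDHB, DLAT and DLD lay between 100.3 and 133 TPM and PDHX at 31.3 ± 1.74 TPM. FDX1, the ferredoxin, stood at 13.1 ± 0.447 TPM, LIAS at 29.8 ± 1.37, LIPT1 at 11.0 ± 2.21 and LIPT2 at 12.2 ± 2.59 TPM (mean ± SD, n = 3). Transcripts of the lipoylated proteins DLAT (125 ± 2.81), GCSH (112 ± 1.64) and DLST (66.7 ± 0.755 TPM, mean ± SD, n = 3) were all more abundant than these 4. The transcript of DBT, another lipoylated protein, stood at 25.9 ± 0.716 TPM (mean ± SD, n = 3), below LIAS but above FDX1, LIPT1 and LIPT2. Summed over the 33 genes, the level was 2816 to 3000 TPM in untreated and 2709 to 2789 TPM in copper-treated Ishikawa libraries, and 2502 to 2624 and 2467 to 2565 TPM in KLE libraries. The mitochondrially encoded share of counts, which these nuclear genes do not enter, was 6.16 to 7.21% and 6.20 to 6.40% in Ishikawa libraries and went from 5.91 to 6.82% to 4.05 to 4.72% in KLE libraries. Its part in the results was not tested. RNA per cell and the number of cells of a kind cannot be told apart in bulk libraries.

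Copper changed genes of the group in both directions in both lines, and among the largest changes were falls of PDK2, PDK3, PDK4, LIPT2 and IDH2 and rises of DLD, PDP1, DLST and IDH3B in Ishikawa cells. In Ishikawa cells 11 genes rose, 12 fell and 10 were not called by edgeR at an adjusted p under 0.05. The called share was 69.7%, beside 69.1% of all 13359 genes tested (33.8% higher and 35.3% lower). In KLE cells 9 rose, 9 fell and 15 were not called, a called share of 54.5% beside 50.8% of 13031 genes (25.6% higher and 25.2% lower). These shares are near those of all genes. The median log2 fold change was 0.04 for the 33 genes and −0.01 for all genes in Ishikawa cells, and 0.03 and −0.0017 in KLE cells. Changes of the 33 genes were moderate: the median size of the log2 fold change was 0.26 against 0.42 over all genes in Ishikawa cells and 0.16 against 0.19 in KLE cells. The genes set against them were not matched for abundance. Called changes of at least 1.5-fold were seen for 12 of the 33 genes in Ishikawa cells (5 rises and 7 falls, where 34.8% of all genes passed) and for 3 in KLE cells (all falls, where 13% passed). Treated and untreated libraries did not overlap for 24 genes in Ishikawa cells, beside 72.7% of all genes, and for 21 in KLE cells, beside 56.6%. Without Ishikawa control 2, 25 genes were called in Ishikawa cells (13 higher and 12 lower), 22 of them among the 23. The call of IDH1 was lost and MDH1, IDH3A and IDH3G were called higher. The split in Ishikawa cells moved with the scaling: 7 rose and 14 fell with upper-quartile factors, 6 rose and 14 fell with library totals, and 6 rose and 15 fell in the fits of log2(TPM + 1). These scalings put the median of all genes at −0.12, −0.17 and −0.17, and the higher share of all calls at 39.0, 35.7 and 34.4% in place of 48.9%.

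**Figure D2:**
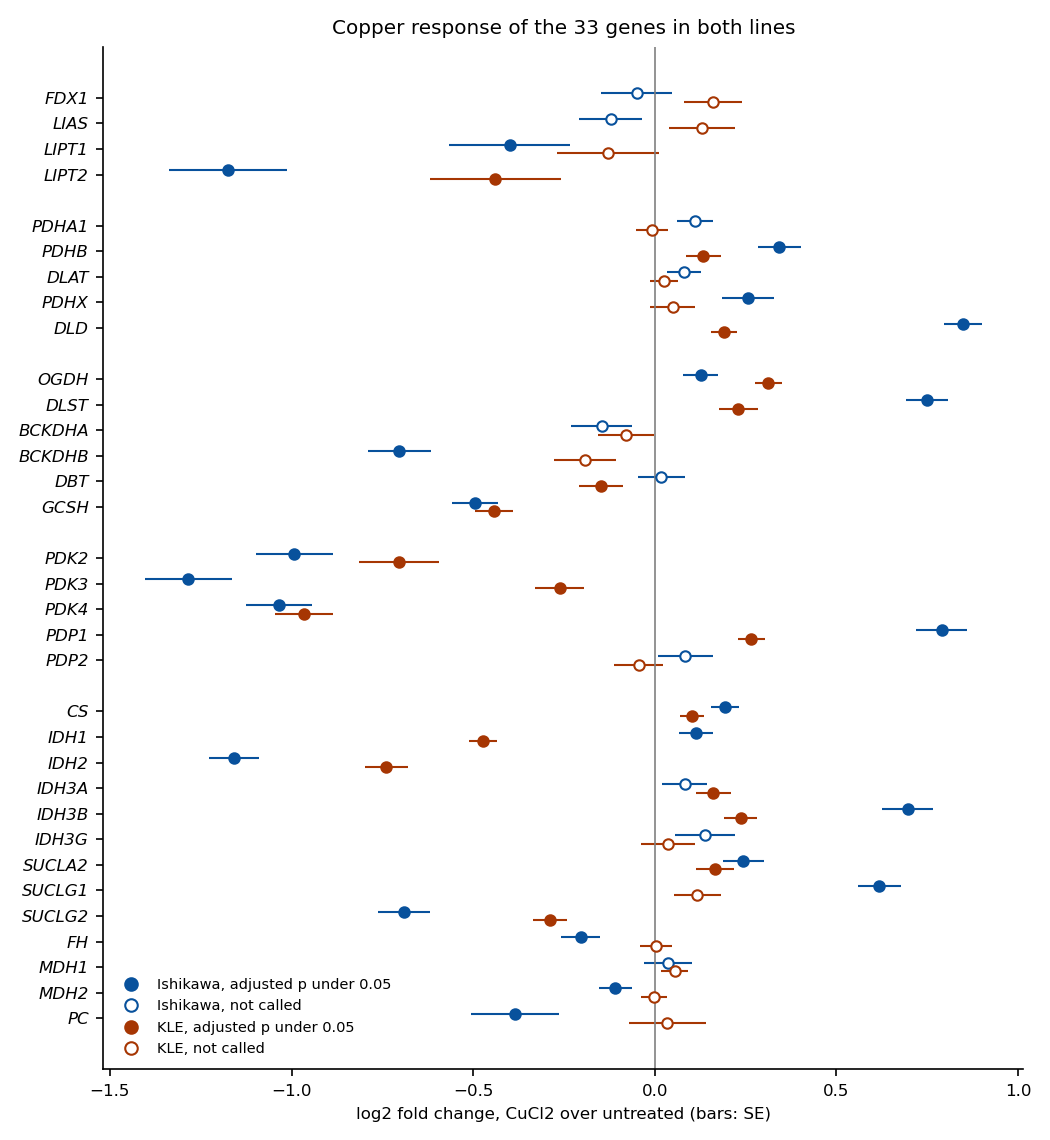
Log2 fold change of CuCl2 over untreated for each of the 33 genes in Ishikawa (blue) and KLE cells (red), with bars of 1 SE and filled points where the edgeR adjusted p was under 0.05; 3 libraries per group. PDK2, PDK4, IDH2 and GCSH lie left of zero in both lines, while LIPT2, PDK3, DLD and DLST lie farther from zero in Ishikawa cells.

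Calls were compared between the lines gene by gene. Rises in both lines were called for 8 of the 33 genes (PDHB, DLD, OGDH, DLST, PDP1, CS, IDH3B and SUCLA2), where 18.9% of the 12806 genes tested in both lines were called higher in both. Of these, OGDH and CS in Ishikawa and SUCLA2 in KLE cells had values below 0 under the scalings named with each gene. Falls in both lines were called for 7 genes (LIPT2, GCSH, PDK2, PDK3, PDK4, IDH2 and SUCLG2), beside 19.3% of all genes. IDH1 alone was called in opposite directions, higher in Ishikawa and lower in KLE cells, which 1.19% of all genes shared, and its Ishikawa value was below 0 with library totals and in TPM. No call was made in either line for 8 genes: FDX1, LIAS, PDHA1, DLAT, BCKDHA, PDP2, IDH3G and MDH1.

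Promoters of 4 genes with large changes are shown. In the main edgeR fits DLD and DLST were among the 3 largest rises in Ishikawa cells. PDK3 had the largest fall there, and PDK4 had the largest fall in KLE cells. PDP1, the other of those 3 rises, had no promoter entry. LIPT2 and IDH2, which fell more than PDK4 in Ishikawa cells, are not shown. Each sequence is the 250 bases before the gene's start, 5′ to 3′ on the gene's strand, from RefSeq (GRCh38.p14). The windows are chr7:107890857-107891106 on the plus strand for DLD, chr14:74881666-74881915 on the plus strand for DLST, chr7:95596517-95596766 on the minus strand for PDK4 and chrX:24465036-24465285 on the plus strand for PDK3. Capitals mark the core of the metal response element, TGCGCNC, the letters known to be bound by the metal-sensing factor MTF1.
DLD: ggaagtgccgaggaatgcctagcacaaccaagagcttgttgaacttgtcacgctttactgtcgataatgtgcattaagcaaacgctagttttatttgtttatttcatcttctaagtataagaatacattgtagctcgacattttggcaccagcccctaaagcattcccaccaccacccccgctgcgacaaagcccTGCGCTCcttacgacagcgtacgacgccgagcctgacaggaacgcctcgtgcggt
DLST: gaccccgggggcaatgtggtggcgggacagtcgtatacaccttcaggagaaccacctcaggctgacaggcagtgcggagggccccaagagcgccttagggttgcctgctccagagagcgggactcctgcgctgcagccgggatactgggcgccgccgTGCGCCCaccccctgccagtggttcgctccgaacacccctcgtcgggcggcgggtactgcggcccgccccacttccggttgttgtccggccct
PDK4: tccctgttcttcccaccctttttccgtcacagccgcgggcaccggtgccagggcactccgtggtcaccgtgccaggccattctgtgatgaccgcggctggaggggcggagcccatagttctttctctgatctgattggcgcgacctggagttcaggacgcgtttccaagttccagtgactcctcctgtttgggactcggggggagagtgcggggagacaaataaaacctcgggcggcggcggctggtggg
PDK3: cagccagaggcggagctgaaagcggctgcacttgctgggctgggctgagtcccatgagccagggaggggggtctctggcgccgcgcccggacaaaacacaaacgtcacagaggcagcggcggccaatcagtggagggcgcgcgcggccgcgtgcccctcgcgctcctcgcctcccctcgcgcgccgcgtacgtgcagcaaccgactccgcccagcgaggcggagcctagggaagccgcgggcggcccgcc
The core begins 55 bases before the start of DLD and 93 bases before the start of DLST, and these letters are not in the PDK4 and PDK3 windows. RefSeq promoters were matched for 31 of the 33 genes. Searched on both strands, TGCGCNC was in 10 of 39 promoters of these genes (25.6%), belonging to LIPT1, DLAT, PDHX, DLD, DLST, BCKDHB, IDH3G, SUCLA2 and MDH1, and in 16.8% of 35116 promoters of all genes. DLD enters the 10 at starts 107891107 and 107891183, whose overlapping windows hold the same site, 55 and 131 bases before them. The 9 genes with the core include rises (DLD, DLST, PDHX, SUCLA2), falls (BCKDHB, LIPT1) and genes not called (DLAT, IDH3G, MDH1) in Ishikawa cells. The antioxidant response element core TGACNNNGC was in 7.69% of these promoters (GCSH, IDH1 and IDH3G) and 10.9% of all, and the heat shock element core GAANNTTC in 5.13% (IDH3B and IDH3G) and 5.78% of all. The median GC content was 64.4% in promoters of these genes and 58% in all promoters, and TGCGCNC is a GC-rich string. A match describes letters only and is not evidence of binding.

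Of the lipoylation genes, LIPT2, the octanoyltransferase that starts lipoate assembly (ENSG00000175536, GRCh38.p14 chromosome 11, 74490519 to 74493724, minus strand), fell in both lines. LIPT2 stood at 8.68, 7.21 and 8.25 CPM (counts scaled to library size with TMM factors of the 12 libraries) in untreated Ishikawa libraries and at 3.74, 2.93 and 3.78 CPM with copper. All 3 treated libraries lay below the untreated ones, a log2 fold change of −1.18 ± 0.16 SE (edgeR adjusted p = 1.41e-05). In KLE cells LIPT2 stood at 5.55, 4.89 and 4.48 CPM untreated and 4.09, 3.37 and 3.498 CPM with copper, again without overlap (−0.44 ± 0.18 SE on the log2 scale, edgeR adjusted p = 0.0404). The KLE call was lost in DESeq2, in the fits of TPM and without KLE control 1 or 2 or copper-treated KLE library 2 or 3, and the log2 fold change was −0.53 to −0.36 over all fits that left out 1 library (the leave-out range).

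LIPT1, the transferase that moves lipoate onto the large complexes, stood at 6.20, 5.49 and 7.72 CPM in untreated and 4.82, 4.49 and 5.04 CPM in treated Ishikawa libraries, and at 8.36, 7.42 and 8.07 CPM untreated and 7.38, 8.51 and 5.83 CPM treated in KLE libraries. The Ishikawa groups did not overlap and the KLE groups did. The log2 fold change was −0.40 ± 0.17 SE in Ishikawa cells (edgeR adjusted p = 0.0445), a call that was lost without any 1 Ishikawa library other than control 2 (leave-out range −0.53 to −0.26, adjusted p up to 0.19), with RLE factors, in limma-voom and in DESeq2. In KLE cells the 95% interval of the log2 fold change was −0.40 to 0.15.

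FDX1 and LIAS were not called in either line. FDX1, the ferredoxin that can hand electrons to LIAS and to copper, stood at 20.1, 18.1 and 19.7 CPM untreated and 19.2, 16.4 and 19.1 CPM with copper in Ishikawa cells, where the groups overlap, with a 95% interval of the log2 fold change of −0.24 to 0.14. In KLE cells it stood at 20.4, 19.7 and 19.4 CPM untreated and 20.7, 22.05 and 23.9 CPM treated, with every treated library above the untreated ones and an interval of 0.0034 to 0.32 (edgeR adjusted p = 0.0928), and it was called higher without copper-treated KLE library 1. LIAS, the synthase that inserts sulfur, stood at 19.8, 19.9 and 19.7 CPM untreated and 18.8, 17.8 and 16.96 CPM treated in Ishikawa cells. Its intervals were −0.29 to 0.050 in Ishikawa and −0.050 to 0.31 in KLE cells, so a halving or a doubling lies outside both. Scaled by upper-quartile factors, library totals or TPM, LIAS was called lower in Ishikawa cells. Exons of LIAS overlap those of RPL9 on the other strand by 363 bases, and LIPT1 overlaps MITD1 by 262 bases. The strand setting of the counting is not given in the sources used here, so reads of such pairs cannot be told apart.

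In the pyruvate dehydrogenase complex, which turns pyruvate into acetyl-CoA, DLD rose in both lines while DLAT and PDHA1 were not called. DLD, the dihydrolipoamide dehydrogenase that all lipoylated complexes share (ENSG00000091140, GRCh38.p14 chromosome 7, 107891107 to 107921198, plus strand), stood at 141, 137 and 152 CPM in untreated and 243, 262 and 253 CPM in treated Ishikawa libraries, a 1.80-fold rise with no overlap. The log2 fold change was 0.85 ± 0.052 SE (edgeR adjusted p = 2.07e-09). In KLE cells DLD went from 168, 162 and 169 CPM to 193, 185 and 191 CPM, a 1.14-fold rise with no overlap (log2 fold change 0.19 ± 0.036 SE, edgeR adjusted p = 2.69e-05). The rise was smaller in KLE than in Ishikawa cells, with a difference (KLE minus Ishikawa) of −0.60 on the log2 scale (edgeR adjusted p = 7.21e-08).

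DLAT, the lipoylated acetyltransferase core, stood at 191, 183 and 190.4 CPM untreated and 188, 204 and 194 CPM with copper in Ishikawa cells, and at 179, 176 and 178 CPM untreated and 191, 171 and 180.1 CPM treated in KLE cells. Treated and untreated libraries overlapped in both lines. The 95% intervals of its log2 fold change were −0.013 to 0.17 and −0.049 to 0.10. PDHA1, the catalytic alpha subunit that the kinases phosphorylate, had intervals of 0.013 to 0.21 and −0.095 to 0.079 and was not called (edgeR adjusted p = 0.0608 and 0.899), though with RLE factors it was called higher in Ishikawa cells. PDHB, the beta subunit, rose by 0.34 ± 0.059 SE (log2, edgeR adjusted p = 1.05e-04) in Ishikawa and by 0.13 ± 0.049 SE (log2, edgeR adjusted p = 0.0202) in KLE cells, where the call was lost without KLE control 2 or 3 or copper-treated library 1 (leave-out range 0.088 to 0.17), in DESeq2, in the fit of all 12 libraries and with upper-quartile factors, library totals or TPM. PDHX, which anchors DLD in the complex, rose in Ishikawa cells by 0.26 ± 0.072 SE (log2, edgeR adjusted p = 0.00513), a call that upper-quartile, library-total and TPM scaling removed. The DLD to DLAT ratio of TPM went from 1.02, 1.08 and 1.09 in untreated to 1.72, 1.78 and 1.73 in treated Ishikawa libraries, and from 1.31, 1.28 and 1.24 to 1.38, 1.40 and 1.46 in KLE libraries, with no overlap in either line.

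**Figure D3:**
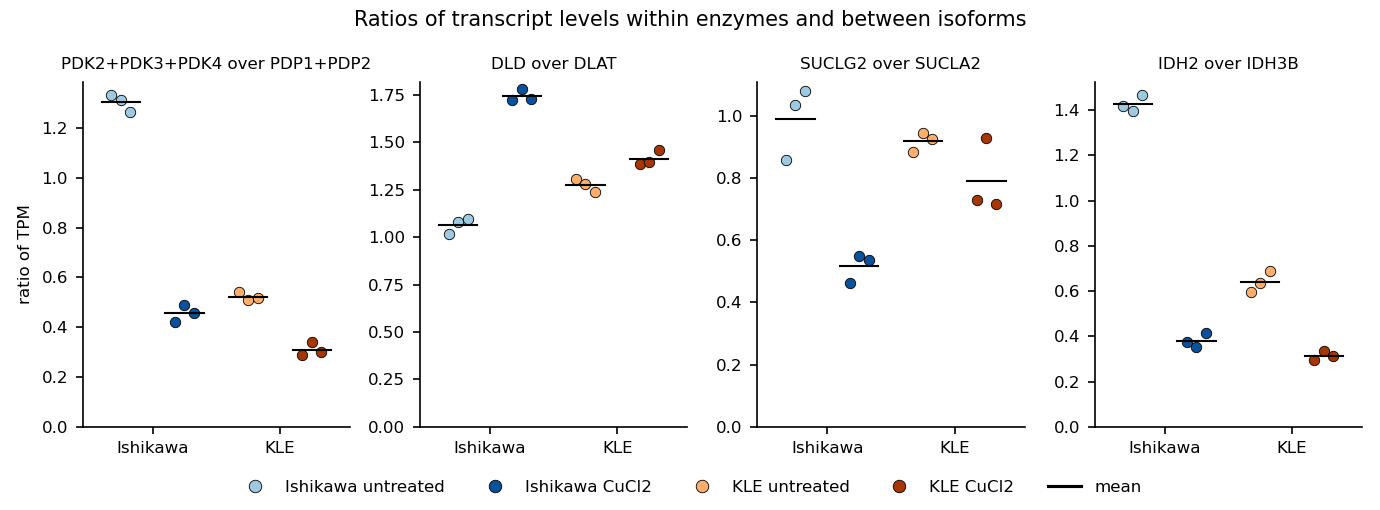
Ratios of TPM in each of the 12 libraries (points) with group means (lines) for the kinases PDK2, PDK3 and PDK4 over the phosphatases PDP1 and PDP2, DLD over DLAT, SUCLG2 over SUCLA2 and IDH2 over IDH3B. Treated Ishikawa libraries are apart from untreated ones in all 4 panels; in KLE cells only the SUCLG2 over SUCLA2 panel shows overlapping groups.

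Among the other lipoylated complexes, the 2-oxoglutarate dehydrogenase genes rose and GCSH fell in both lines. DLST, the lipoylated core of 2-oxoglutarate dehydrogenase (ENSG00000119689, GRCh38.p14 chromosome 14, 74881916 to 74903743, plus strand), stood at 72.9, 81.7 and 81.8 CPM in untreated and 133, 129.8 and 127 CPM in treated Ishikawa libraries, and at 61.0, 61.4 and 64.3 CPM untreated and 75.6, 66.0 and 77.4 CPM treated in KLE libraries. No treated library overlapped the untreated ones, and the rise was 1.68-fold in Ishikawa (log2 0.75 ± 0.057 SE, edgeR adjusted p = 2.28e-08) and 1.17-fold in KLE cells (log2 0.23 ± 0.054 SE, edgeR adjusted p = 4.64e-04). The KLE call was lost in the fits of TPM. OGDH, the decarboxylase of the same complex, rose more in KLE (log2 0.31 ± 0.038 SE, edgeR adjusted p = 3.71e-09) than in Ishikawa cells (log2 0.13 ± 0.048 SE, edgeR adjusted p = 0.0299), and the difference between the responses was 0.24 ± 0.063 SE (edgeR adjusted p = 0.00315). The Ishikawa rise of OGDH turned to −0.027 with library totals and −0.041 in TPM, neither called, and its call was lost with upper-quartile factors, with no count filter, in the fit of all 12 libraries and without Ishikawa control 1 or 3 or copper-treated library 2 or 3 (leave-out range 0.087 to 0.16). The call of the difference was lost without copper-treated Ishikawa library 1 or copper-treated KLE library 3 (leave-out range 0.16 to 0.28) and in the unfiltered fit of TPM.

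GCSH, the lipoyl carrier of glycine cleavage on which lipoate is first made, stood at 81.7, 79.2 and 80.6 CPM untreated and 52.0, 56.3 and 59.8 CPM with copper in Ishikawa cells and at 64.8, 68.6 and 65.1 CPM untreated and 49.4, 47.9 and 48.7 CPM treated in KLE cells. It fell in both lines with no overlap, with log2 fold changes of −0.50 ± 0.063 SE (edgeR adjusted p = 5.48e-06) and −0.44 ± 0.052 SE (edgeR adjusted p = 2.16e-09), and the 95% interval of the difference between those responses was −0.045 to 0.26. Reads of GCSH depend on how the authors' quantification shared them with its 5 named pseudogenes. BCKDHB, the beta subunit of branched-chain ketoacid dehydrogenase, stood at 26.2, 27.7 and 26.4 CPM untreated and 15.1, 16.1 and 17.2 CPM treated in Ishikawa cells. It fell there without overlap (log2 −0.70 ± 0.087 SE, edgeR adjusted p = 4.24e-06) and was not called in KLE cells (log2 −0.19 ± 0.086 SE, edgeR adjusted p = 0.0593) except with upper-quartile factors, with library totals or without KLE control 1, with a difference of 0.57 ± 0.12 SE (edgeR adjusted p = 5.12e-04). BCKDHA, its alpha subunit, was not called in either line (intervals −0.31 to 0.019 and −0.23 to 0.074). It was called lower in Ishikawa cells with upper-quartile factors (−0.26), library totals (−0.30) and TPM (−0.33), in the fit of all 12 libraries and without Ishikawa control 3. DBT, the lipoylated core of that enzyme, had an interval of −0.11 to 0.15 in Ishikawa cells and fell in KLE cells (log2 −0.15 ± 0.060 SE, edgeR adjusted p = 0.0374), a call lost in DESeq2, with no count filter, in the fits of TPM and without KLE control 1 or 3 or copper-treated library 2 or 3 (leave-out range −0.17 to −0.13).

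Of the kinases that inactivate pyruvate dehydrogenase, PDK2, PDK3 and PDK4 fell in both lines, and one of the phosphatases that reactivate it rose. PDK4, the kinase best known for its induction in fasting (ENSG00000004799, GRCh38.p14 chromosome 7, 95583499 to 95596516, minus strand), stood at 47.3, 41.6 and 49.999 CPM in untreated and 19.9, 22.4 and 24.1 CPM in treated Ishikawa libraries, and at 29.8, 31.6 and 30.2 CPM untreated and 15.2, 17.03 and 14.7 CPM treated in KLE libraries. All treated libraries lay below the untreated ones, at 0.488 of the untreated level in Ishikawa and 0.512 in KLE cells. The log2 fold changes were −1.04 ± 0.092 SE (edgeR adjusted p = 1.20e-07) and −0.97 ± 0.079 SE (edgeR adjusted p = 1.26e-13), and the 95% interval of their difference was −0.12 to 0.37.

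PDK2, the most widely expressed kinase of the family (ENSG00000005882, GRCh38.p14 chromosome 17, 50094737 to 50112152, plus strand), stood at 19.3, 19.3 and 17.1 CPM untreated and 9.34, 9.63 and 8.37 CPM treated in Ishikawa cells and at 15.4, 14.5 and 16.4 CPM untreated and 9.30, 10.8 and 8.23 CPM treated in KLE cells. It fell without overlap in both, with log2 fold changes of −0.99 ± 0.11 SE (edgeR adjusted p = 9.30e-07) and −0.71 ± 0.11 SE (edgeR adjusted p = 8.48e-07). The difference between the responses was not called (interval 0.043 to 0.64, edgeR adjusted p = 0.0718). Exons of PDK2 overlap SAMD14 on the other strand by 2113 of 5481 bases, and SAMD14 had 311 counts over the 12 libraries against 2665 for PDK2.

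PDK3, the kinase of the highest known activity (ENSG00000067992, GRCh38.p14 chromosome X, 24465286 to 24550466, plus strand), stood at 32.2, 30.7 and 34.0 CPM in untreated and 13.2, 15.4 and 10.1 CPM in treated Ishikawa libraries, and at 36.3, 40.9 and 36.2 CPM untreated and 31.0, 33.9 and 29.7 CPM treated in KLE libraries. No treated library overlapped the untreated ones in either line. Copper lowered it to 0.411 of the untreated level in Ishikawa (log2 −1.28 ± 0.12 SE, edgeR adjusted p = 2.46e-07) and to 0.834 in KLE cells (log2 −0.26 ± 0.068 SE, edgeR adjusted p = 0.00138). The responses differed by 1.08 ± 0.14 SE on the log2 scale (edgeR adjusted p = 2.50e-06), the largest difference among the 33 genes. In the fits of TPM the KLE value was −0.10 and not called. The Ishikawa fall of PDK3 was called in every alternative setting, with log2 fold changes of −1.44 to −0.85. Those of IDH2 in Ishikawa cells were −1.33 to −1.09, so the rank of PDK3 as the largest fall depends on the setting.

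**Figure D4:**
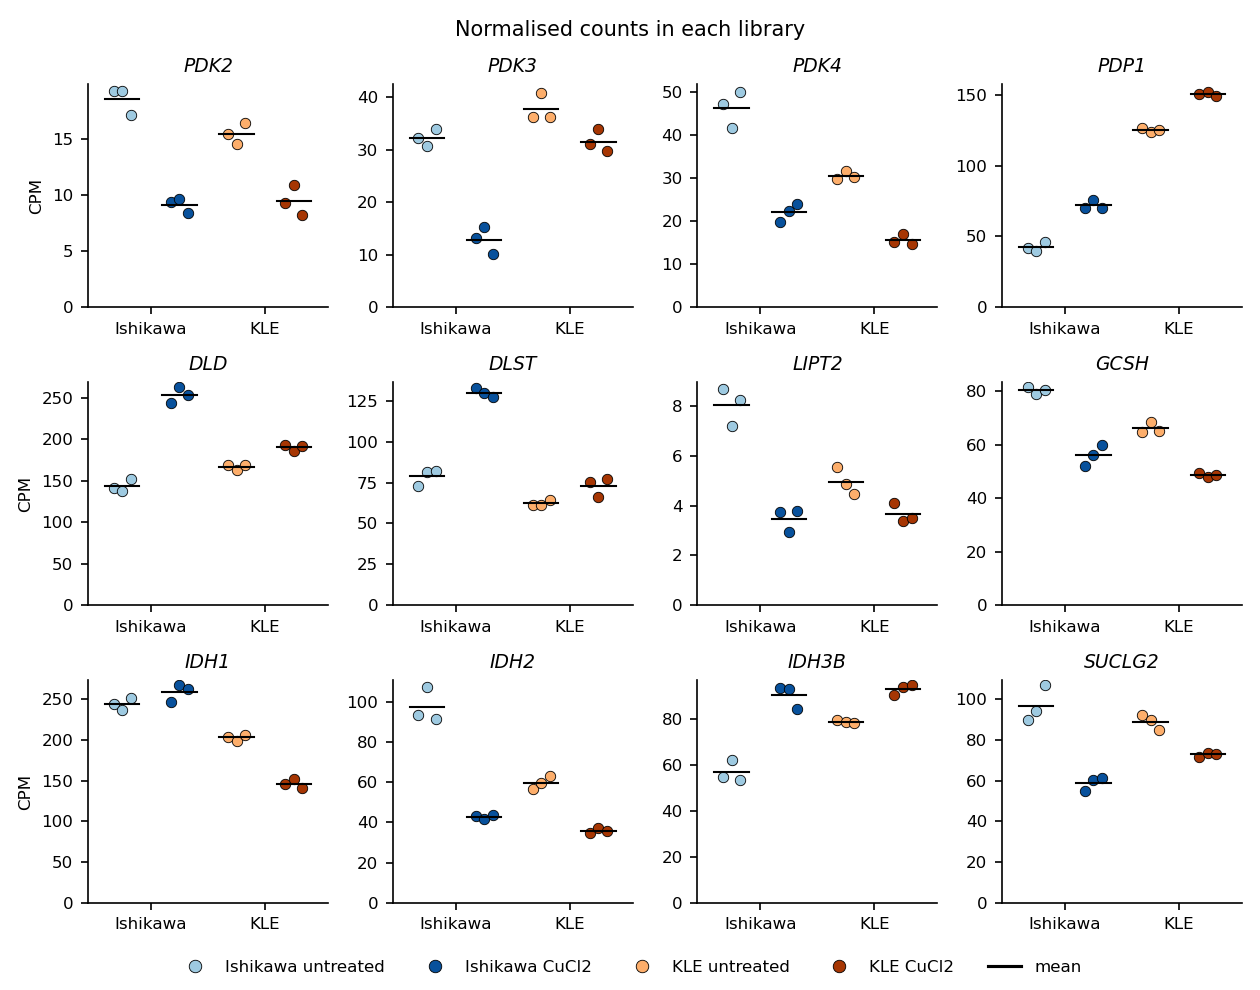
Normalised counts (CPM) of 12 of the genes in each of the 12 libraries, with group means as lines; every vertical axis starts at 0. The 3 kinase genes, LIPT2, GCSH, IDH2 and SUCLG2 lie lower with copper in both lines, PDP1, DLD, DLST and IDH3B lie higher in both, and IDH1 lies lower with copper in KLE cells.

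PDP1, the catalytic phosphatase subunit with the higher level of the 2 phosphatases in these cells (ENSG00000164951, GRCh38.p14 chromosome 8, 93916923 to 93926068, plus strand), stood at 42.0, 39.5 and 46.3 CPM in untreated and 69.9, 75.8 and 70.2 CPM in treated Ishikawa libraries, and at 127, 124 and 125 CPM untreated and 151, 152 and 149.6 CPM treated in KLE libraries. It rose without overlap in both lines, 1.73-fold in Ishikawa (log2 0.79 ± 0.071 SE, edgeR adjusted p = 1.36e-07) and 1.20-fold in KLE cells (log2 0.27 ± 0.038 SE, edgeR adjusted p = 1.76e-07). Every KLE library lay above every Ishikawa library. PDP2, the other phosphatase, was not called in counts in either line (intervals −0.065 to 0.23 and −0.18 to 0.089), and in the fits of TPM it was called lower in Ishikawa cells, with a log2 fold change of −0.26. The ratio of the 3 kinases to the 2 phosphatases in TPM went from 1.33, 1.31 and 1.27 in untreated to 0.419, 0.490 and 0.459 in treated Ishikawa libraries. In KLE libraries it went from 0.540, 0.509 and 0.516 to 0.289, 0.338 and 0.299. Treated libraries lay below untreated ones in both lines, and the untreated KLE libraries lay just above the treated Ishikawa ones. PDK1, the remaining kinase of the family and named here after its values were seen, stood at 21.9, 27.8 and 28.1 TPM in untreated and 16.0, 20.8 and 16.8 TPM in treated Ishikawa libraries, and at 18.5, 17.4 and 25.2 TPM untreated and 19.1, 17.3 and 17.3 TPM treated in KLE libraries. In counts it fell in Ishikawa cells (log2 −0.40 ± 0.068 SE, edgeR adjusted p = 1.06e-04) and was not called in KLE cells (interval −0.12 to 0.13), and the responses differed by 0.46 ± 0.096 SE (edgeR adjusted p = 4.43e-04). With PDK1 added the ratio was 1.84 to 1.95 and 0.708 to 0.865 in Ishikawa cells and 0.706 to 0.798 and 0.475 to 0.524 in KLE cells. These are ratios of transcripts, and no enzyme activity was measured.

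In the TCA cycle, the isocitrate dehydrogenase genes moved apart. IDH2, the mitochondrial NADP-dependent enzyme (ENSG00000182054, GRCh38.p14 chromosome 15, 90083045 to 90102468, minus strand), stood at 93.4, 107 and 91.7 CPM in untreated and 43.4, 41.7 and 43.6 CPM in treated Ishikawa libraries, and at 56.6, 59.8 and 63.2 CPM untreated and 34.5, 37.4 and 35.8 CPM treated in KLE libraries. It fell without overlap to 0.448 of the untreated level in Ishikawa (log2 −1.16 ± 0.070 SE, edgeR adjusted p = 1.72e-09) and to 0.599 in KLE cells (log2 −0.74 ± 0.058 SE, edgeR adjusted p = 5.17e-14). IDH3B, a regulatory subunit of the NAD-dependent enzyme of the cycle (ENSG00000101365, GRCh38.p14 chromosome 20, 2658395 to 2664216, minus strand), stood at 54.6, 62.3 and 53.2 CPM untreated and 93.6, 93.1 and 84.1 CPM treated in Ishikawa cells and at 79.7, 78.5 and 78.3 CPM untreated and 90.2, 93.7 and 94.8 CPM treated in KLE cells. It rose without overlap, 1.62-fold (log2 0.70 ± 0.071 SE, edgeR adjusted p = 5.44e-07) and 1.18-fold (log2 0.24 ± 0.045 SE, edgeR adjusted p = 2.91e-05). The IDH2 to IDH3B ratio of TPM went from 1.42, 1.40 and 1.47 to 0.376, 0.352 and 0.416 in Ishikawa and from 0.595, 0.636 and 0.687 to 0.296, 0.337 and 0.312 in KLE libraries.

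The other subunits of the NAD-dependent enzyme changed less. IDH3A, the catalytic subunit, was not called in Ishikawa cells (interval −0.042 to 0.21) except without Ishikawa control 2 (0.13, edgeR adjusted p = 0.0451), and rose by log2 0.16 ± 0.048 SE in KLE cells (edgeR adjusted p = 0.00447), where 1 treated library lay within the untreated range. IDH3G, the gamma subunit, was not called in either line (intervals −0.025 to 0.30 and −0.11 to 0.18) except in Ishikawa cells without control 2 (0.20, edgeR adjusted p = 0.0327). IDH1, the cytosolic NADP-dependent enzyme, stood at 244, 238 and 252 CPM untreated and 246, 267 and 263 CPM treated in Ishikawa cells, where the groups overlap, and at 204, 199 and 207 CPM untreated and 146, 152 and 141 CPM treated in KLE cells, where they do not. It fell in KLE cells to 0.721 of the untreated level (log2 −0.47 ± 0.038 SE, edgeR adjusted p = 6.55e-14). The small Ishikawa rise (log2 0.11 ± 0.047 SE, edgeR adjusted p = 0.0451) turned to −0.042 with library totals and −0.041 in TPM, and its call was lost with upper-quartile factors, with no count filter, in the fit of all 12 libraries and without Ishikawa control 1 or 2 or copper-treated library 2 or 3 (leave-out range 0.079 to 0.14). The difference between the responses was −0.53 ± 0.060 SE (edgeR adjusted p = 2.71e-07).

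Subunits of succinyl-CoA ligase, which makes GTP or ATP in the cycle, also moved in opposite directions. SUCLG2, the GTP-specific beta subunit (ENSG00000172340, GRCh38.p14 chromosome 3, 67360460 to 67654612, minus strand), stood at 89.5, 94.1 and 107 CPM untreated and 54.9, 60.3 and 61.2 CPM with copper in Ishikawa cells and at 92.4, 89.9 and 84.6 CPM untreated and 71.6, 73.7 and 73.0 CPM treated in KLE cells. It fell without overlap, with log2 fold changes of −0.69 ± 0.071 SE (edgeR adjusted p = 6.02e-07) and −0.29 ± 0.047 SE (edgeR adjusted p = 2.29e-06). SUCLA2, the ATP-specific beta subunit, rose by log2 0.24 ± 0.056 SE in Ishikawa (edgeR adjusted p = 0.00129) and 0.16 ± 0.052 SE in KLE cells (edgeR adjusted p = 0.00787). The Ishikawa call was lost with library totals and in TPM. The KLE value turned to −0.10 in the fits of TPM, not called, and its call was lost without copper-treated KLE library 1 (edgeR adjusted p = 0.0526). SUCLG1, the alpha subunit that both share, stood at 51.2, 51.2 and 49.0 CPM untreated and 77.6, 73.2 and 77.0 CPM treated in Ishikawa cells and rose 1.53-fold without overlap (log2 0.62 ± 0.060 SE, edgeR adjusted p = 3.22e-07). In KLE cells its interval was −0.01 to 0.24 and it was not called. The SUCLG2 to SUCLA2 ratio of TPM went from 0.857, 1.03 and 1.08 to 0.464, 0.550 and 0.536 in Ishikawa libraries and from 0.884, 0.946 and 0.927 to 0.730, 0.930 and 0.715 in KLE libraries, where the groups overlap.

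Of the remaining genes, CS, FH, MDH2 and MDH1 had smaller log2 fold changes in Ishikawa cells than PC, which feeds the cycle. CS rose by log2 0.19 ± 0.039 SE (edgeR adjusted p = 4.35e-04) and 0.10 ± 0.032 SE (edgeR adjusted p = 0.00699), and in TPM its Ishikawa value was −0.0012. Neither CS call was made with upper-quartile factors, with library totals or in TPM. FH, which hydrates fumarate, fell in Ishikawa cells (log2 −0.20 ± 0.054 SE, edgeR adjusted p = 0.0037) and had an interval of −0.085 to 0.092 in KLE cells, with a difference of 0.26 ± 0.067 SE (edgeR adjusted p = 0.00261). MDH2, the mitochondrial malate dehydrogenase, fell in Ishikawa cells (log2 −0.11 ± 0.046 SE, edgeR adjusted p = 0.0474), a call lost in DESeq2, with RLE factors, with the CPM filter and without Ishikawa control 1 or copper-treated library 1 or 2 (leave-out range −0.13 to −0.085). MDH1 was not called in either line (intervals −0.091 to 0.16 and −0.017 to 0.13), but without Ishikawa control 2 its Ishikawa value went from 0.036 to 0.12 and was called higher (edgeR adjusted p = 0.0116). PC, pyruvate carboxylase, which supplies oxaloacetate, stood at 15.3, 17.5 and 13.4 CPM untreated and 10.4, 11.8 and 12.8 CPM treated in Ishikawa cells. It fell there (log2 −0.39 ± 0.12 SE, edgeR adjusted p = 0.0109), a call lost without copper-treated Ishikawa library 1 (edgeR adjusted p = 0.0618), and had an interval of −0.17 to 0.24 in KLE cells. PC shares 621 exon bases with LRFN4 on the other strand, which held 3157 counts over the 12 libraries against 2600 for PC.

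The copper responses of the lines were compared by an interaction contrast in a fit of all 12 libraries. It called 15 of the 33 genes (45.5%, beside 45.4% of 13663 genes), 9 with a higher and 6 with a lower log2 fold change in KLE than in Ishikawa cells (24.6% and 20.8% of all genes). In 13 of the 15 the change was larger in size in Ishikawa cells. For DLD, DLST, PDP1, IDH3B and SUCLG1 the log2 fold change was lower in KLE cells, with differences of −0.60, −0.46, −0.47, −0.40 and −0.44 on the log2 scale. LIPT2, PDK3, BCKDHB, IDH2, SUCLG2, FH, MDH2 and PC had a difference above 0, between 0.16 (MDH2) and 1.08 (PDK3), with the lower value in Ishikawa cells. The exceptions were OGDH, whose rise was larger in KLE cells, and IDH1, whose fall was in KLE cells. Over all genes too, the median size of the log2 fold change was 0.42 in Ishikawa and 0.19 in KLE cells. The calls for MDH2 and PC are the least firm of the 15. MDH2 was lost without copper-treated Ishikawa library 1, 2 or 3, KLE control 1, 2 or 3 or copper-treated KLE library 2 or 3 (leave-out range 0.088 to 0.19), in DESeq2, with RLE factors and with no count filter. PC was lost without Ishikawa control 2, copper-treated Ishikawa library 1 or 2, KLE control 1 or copper-treated KLE library 1 (leave-out range 0.35 to 0.57) and in DESeq2. Without Ishikawa control 2, FDX1 was called higher in KLE cells as well, as it was with library totals and in the fits of TPM. LIAS was called higher with library totals, in the fits of TPM and without KLE control 1 or copper-treated KLE library 1. PDK2 was called higher with library totals, in the fits of TPM and without Ishikawa control 3. PDHB was called lower with RLE factors and without copper-treated Ishikawa library 2 or 3, and IDH3A higher with library totals. In the fits of log2(TPM + 1), 12 genes had a higher and 6 a lower value in KLE cells, and the higher share of all calls was 65.4% in place of 54.1%.

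Without copper the lines already differed, and most of the called genes were lower in KLE cells. Of the 33 genes, 22 were called (66.7%, beside 50% of 13663 genes), 5 higher and 17 lower in KLE than in Ishikawa cells (24.5% and 25.6% of all genes). The median log2 difference was −0.14 for the 33 genes and −0.0044 for all genes. The groups did not overlap for 26 of the 33 genes, beside 55.1% of all genes, and called differences of at least 1.5-fold were found for 6, beside 18.2%. PDP1 was 2.95-fold higher in KLE cells (log2 1.56 ± 0.054 SE, edgeR adjusted p = 3.64e-17), followed by IDH3B (log2 0.47 ± 0.058 SE, edgeR adjusted p = 4.96e-07), IDH3A, PDK3 and DLD. All 6 subunits of the other lipoylated complexes were lower in KLE cells, from −0.12 for OGDH to −0.62 for BCKDHA on the log2 scale, with no overlap of the libraries, though OGDH was not called without Ishikawa control 1 or KLE control 1 or 2, and neither OGDH nor DBT in TPM. IDH2 (−0.71 ± 0.061 SE, edgeR adjusted p = 9.89e-10), LIPT2 (−0.69 ± 0.15 SE, edgeR adjusted p = 6.02e-04), SUCLG1 (−0.61 ± 0.060 SE, edgeR adjusted p = 8.13e-09) and PDK4 (−0.60 ± 0.081 SE, edgeR adjusted p = 1.46e-06) were the other genes lower by at least 0.585 on the log2 scale, which is 1.5-fold. Of the pyruvate dehydrogenase subunits, DLD alone was called. Without Ishikawa control 2, 20 were called, 4 higher and 16 lower. LIAS, MDH1, PDK2, PDK3 and PC were the calls lost without it, and MDH1 went from −0.14 to −0.045, while DLAT, SUCLA2 and SUCLG2 were called lower. Other single libraries also ended these calls. In the fits that left out 1 library, LIAS stayed called only without KLE control 1 or copper-treated KLE library 1, and MDH1 stayed called only without Ishikawa control 1 or 3 or copper-treated KLE library 2. PDK3 was lost without Ishikawa control 1, any KLE control or copper-treated KLE library 1 or 3, PDK2 without Ishikawa control 1 or KLE control 1 or 2, and PC without KLE control 1. LIAS, PDK2 and PDK3 were not called in DESeq2, LIAS and MDH1 were not called in a fit of the 6 untreated libraries, and IDH3A was not called in TPM. These untreated libraries are also the controls of the copper comparisons.

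Other genes of the pathway were taken from a list of 51, of which 48 were tested (PDHA2, PCK1 and ME3 had too few counts). In Ishikawa cells 12 rose, 22 fell and 14 were not called, and in KLE cells 11 rose, 7 fell and 30 were not called. The called shares were 70.8% beside 69.1% of all genes in Ishikawa cells and 37.5% beside 50.8% in KLE cells, and the lower share in Ishikawa cells was 45.8% beside 35.3%. The median log2 fold changes were −0.14 and 0.0098. By group, the supply of fatty acid precursor, ferredoxin and iron-sulfur clusters for lipoate had 2 rises and 6 falls among 14 genes in Ishikawa and 3 and 2 in KLE cells, called shares of 57.1% and 35.7%. Further regulators and subunits of the complexes had 6 falls and no rise among 9 tested in Ishikawa cells and 3 falls and no rise in KLE cells (66.7% and 33.3% called). The remaining TCA enzymes had 2 rises and 1 fall among 6 in Ishikawa cells and no call in KLE cells by edgeR, with 1 at an unadjusted p under 0.05. Pyruvate, glutamine and carrier genes had 8 rises and 9 falls among 19 in Ishikawa cells and 8 rises and 2 falls in KLE cells (89.5% and 52.6% called).

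ME1, the cytosolic malic enzyme that makes pyruvate and NADPH, had the largest rise of the list. It stood at 77.3, 74.2 and 78.2 CPM in untreated and 281, 314 and 295 CPM in treated Ishikawa libraries and at 75.4, 73.2 and 75.4 CPM untreated and 145, 139.9 and 149.7 CPM treated in KLE libraries, rises of log2 1.99 ± 0.053 SE (edgeR adjusted p = 2.66e-13) and 0.95 ± 0.043 SE (edgeR adjusted p = 7.31e-22). GOT1, the cytosolic aspartate aminotransferase, rose by 0.70 in Ishikawa and by 0.39 in KLE cells on the log2 scale. ISCA1, an iron-sulfur assembly protein, rose by 0.62 in Ishikawa and by 0.13 in KLE cells. LDHA, the lactate dehydrogenase subunit that competes for pyruvate, rose by 0.43 in KLE cells (edgeR adjusted p = 2.64e-15) and fell in Ishikawa cells (log2 −0.29, edgeR adjusted p = 2.19e-05), the only gene of the list called in opposite directions and a pattern of 1.54% of all genes.

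Falls in both lines were called for GLDC, the decarboxylase of glycine cleavage that works with GCSH (−1.20 in Ishikawa and −0.59 in KLE cells on the log2 scale). DHTKD1, which forms a 2-oxoadipate dehydrogenase with DLST and DLD, had log2 fold changes of −0.89 and −0.40. OGDHL, a relative of OGDH, had −0.72 and −0.74, and NNT, the mitochondrial transhydrogenase, −0.71 and −0.27. FDXR, the reductase that passes electrons to the ferredoxins, stood at 6.11, 6.21 and 6.66 CPM in untreated and 4.15, 4.42 and 3.84 CPM in treated KLE libraries (log2 −0.61 ± 0.16 SE, edgeR adjusted p = 0.00152). In the Ishikawa libraries FDXR stood at 6.40, 8.31 and 5.56 CPM untreated and 2.89, 3.65 and 2.07 CPM treated, with the treated libraries below the untreated ones.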

How the data were processed

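RNA was measured in 12 libraries of 2 cell lines, each labelled untreated or treated with CuCl2. The deposited whole counts are the authors' expected counts of the all-genes table after rounding (largest difference 0.5), and 12.8 to 14.1% of the expected counts deposited per library are not whole. The deposited TPM values were taken from the authors' tables, and the tables that are named for FPKM hold the same TPM per the file headers and values. Per the submitters' processing notes, RSEM and DESeq2 were used beside HISAT2 2.1.0, Bowtie2 2.2.8, fastp 0.18.0 and R 4.2.2 on build GRCh38.p14. The role of each tool, the annotation release and the strand setting of the counting were not given in the sources used here.

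Counts were tested with edgeR 4.0.16 in R 4.3.3 (TMM factors, filterByExpr, robust quasi-likelihood test, two-sided, Benjamini-Hochberg adjustment over all genes tested, adjusted p under 0.05 as a call). Copper was tested within the 6 libraries of a line, and the difference between responses and the untreated lines in a fit of all 12. The SE of a log2 fold change is its size over the square root of F. The 95% intervals use this SE with the multiplier of a normal distribution. With 3 libraries per group the degrees of freedom are few, so these intervals are somewhat too narrow. Libraries held 14050275 to 25057003 counts, and 617 genes without a symbol held at most 0.207% of them. Gene positions were matched by Ensembl ID and promoters by symbol. In simulated data of the size of the Ishikawa comparison (13359 genes, 200 changed), 73% of genes changed 1.5-fold and 88% of those changed 2-fold were recovered, and 10.1% of calls were false. For the difference between the responses, 67% and 76% were recovered and 5.92% of calls were false. The data had far more calls (69.1% of genes in Ishikawa cells). These rates therefore belong to the simulated setting and were not measured for the data. Each result was recomputed with DESeq2 1.42.0, with library totals, RLE or upper-quartile factors for scaling, without a count filter or with one of CPM above 1 in 3 libraries, with limma-voom and with limma (3.58.1) on log2(TPM + 1) and log2(TPM + 0.1), with a replicate block, with other sets of libraries in the fit, and leaving out each library in turn.

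All 33 genes are named. Of the other genes of the pathway, up to 4 called genes per direction and line with the largest log2 fold change and a mean of at least 5 CPM are named, except 1 gene that is not reported here. The genes, lists and tests were chosen with earlier results of these data known. FDX1, LIPT1, PDHA1, DLST, GCSH, SUCLA2, SUCLG2, FH and PC have named pseudogenes, and their counts depend on how the authors' quantification assigned reads that match both.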

Additional observations from a re-analysis of the deposited data

Results flagged for a closer look

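For 15 of the 33 genes the copper response differed between the lines by the interaction test of edgeR (adjusted p under 0.05). Given as KLE minus Ishikawa on the log2 scale, the values were above 0 for 9 genes: PDK3 (1.0759), LIPT2 (0.7924), BCKDHB (0.5698), PC (0.4780), IDH2 (0.4775), SUCLG2 (0.4587), FH (0.2645), OGDH (0.2426) and MDH2 (0.1627). For 6 genes they were below 0: DLD (−0.6006), IDH1 (−0.5286), PDP1 (−0.4691), DLST (−0.4620), SUCLG1 (−0.4443) and IDH3B (−0.4018). PDK3, LIPT2, IDH2 and SUCLG2 fell in both lines and DLD, PDP1, DLST, IDH3B and OGDH rose in both, so for these 9 genes the calls differed in size and not in direction (OGDH in Ishikawa cells was below 0 with library totals and in TPM). IDH1 was the one gene of the 15 with calls in opposite directions.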

How the results depend on the processing

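Across the alternatives, 15 of the 23 calls in Ishikawa cells, 11 of 18 in KLE cells, 12 of 15 for the difference between the responses and 14 of 22 between the untreated lines were made under every setting. The number of genes called higher in Ishikawa cells went from 11 to 7 under upper-quartile scaling, and to 6 under scaling to library totals and in all 3 fits of TPM. In KLE cells the 3 fits of TPM called 11 genes, 5 of them higher, in place of 18 and 9. In Ishikawa cells OGDH turned to −0.027 with library totals and to −0.041, −0.042 and −0.041 in the fits on log2(TPM + 1), log2(TPM + 0.1) and unfiltered log2(TPM + 1), and IDH1 to −0.042, −0.041, −0.041 and −0.041. PDP2 went to −0.26, −0.27 and −0.26 and CS to −0.0012 in each of those fits of TPM. SUCLA2 in KLE cells went to −0.095, −0.096 and −0.095. The cause of these changes was not tested. Among values not called in any direction, signs changed 35 times in Ishikawa cells, 24 in KLE cells, 32 for the difference and 7 between the untreated lines.

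Leaving out 1 library gave 19 to 25 calls in Ishikawa cells, 16 to 17 in KLE cells, 12 to 16 for the difference and 17 to 23 between the untreated lines. With the replicate block, 21 genes were called in Ishikawa cells (10 higher, 11 lower), 18 in KLE cells (9 and 9), 15 for the difference (9 and 6) and 21 between the untreated lines (5 and 16). The calls of IDH1 and MDH2 in Ishikawa cells were lost with the replicate block (edgeR adjusted p = 0.0541 and 0.0689), as was LIAS between the untreated lines. The main fits have no block because the labels state independent replicates and name no pairing. In their deviations from the group means, same-numbered libraries correlated by 0.0852, 0.2 and 0.0967 in Ishikawa cells. The KLE values were −0.0824, −0.0346 and −0.0994. In Ishikawa cells each library correlated best with its own number, which was not so in KLE cells. With 3 libraries per group, a gene not called may still have changed by an amount within its 95% interval.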
